A study of Mus musculus with 40 samples.

Results

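Macrophages sense nucleotides in the fluid around them through a set of surface proteins, and 10 genes for such proteins were described here across 40 RNA-seq libraries of bone marrow-derived macrophages (BMDMs, macrophages grown in culture from marrow with M-CSF). They are the ATP-gated channels P2rx7 and P2rx4, the nucleotide receptors P2ry2, P2ry6, P2ry13 and P2ry14, the adenosine receptors Adora2a and Adora2b, the ectonucleotidase Entpd1 and the ATP release channel Panx1. They were picked by gene symbol. All 10 were found among the 43430 genes of the count table, and all 10 passed the filter on low counts that left 11853 genes to be tested. BMDMs came from 5 WT and 5 NDI1 mice, labelled C57/Bl6, and the study's methods give the NDI1 line a mixed J/N substrain background. WT mice carried Vav-iCre alone, a Cre recombinase driven in blood-forming lineages. NDI1 mice carried Vav-iCre together with a Rosa26 construct in which Cre removes a stop in front of NDI1, a yeast NADH dehydrogenase that piericidin A does not block. Cre is therefore shared by both genotypes. BMDMs of each mouse were left untreated, given 100 ng/ml LPS for 4 h, given 500 nM piericidin A (which blocks complex I of the respiratory chain), or given piericidin A 30 min before LPS. Each of the 8 groups held 5 libraries, 1 from each mouse. The labels give no age for the mice, and the study's methods give 1 range of weeks for mice of both sexes, not tied to libraries.

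ATP that leaves a stressed or dying cell opens P2X7, a channel that lets potassium out of the macrophage, and this potassium loss is a classic trigger of the NLRP3 inflammasome after priming with LPS. P2Y receptors are G protein-coupled and each prefers its own nucleotides. CD39, the product of Entpd1, removes phosphates from extracellular ATP and ADP, and further enzymes make adenosine, which acts on the Gs-coupled receptors encoded by Adora2a and Adora2b to raise cAMP and restrain inflammatory cytokines. Adora2a is long known as a gene induced by LPS in macrophages.

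Levels are given as CPM, which are counts scaled to a common library total with TMM factors, and as RPKM where genes are compared with each other, which are CPM per kilobase of merged exon. A call means that the p from edgeR's quasi-likelihood test, after Benjamini-Hochberg adjustment over all tested genes, was under 0.05. Library totals lay between 6950748 and 13552070 counts. Values for WT are given in the order of mice 449, 452, 453, 496 and 520, and values for NDI1 in the order of mice 447, 460, 461, 503 and 521.

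The 10 genes lie on 7 chromosomes, and 6 of them form pairs that lie near each other (GENCODE M21 positions on mm10). P2rx7 (ENSMUSG00000029468, chr5:122643911-122691432, + strand) lies 16151 bases from P2rx4 (ENSMUSG00000029470, chr5:122707584-122729738, + strand). P2ry6 (ENSMUSG00000048779, chr7:100937638-100964391, − strand) lies 32180 bases from P2ry2 (ENSMUSG00000032860, chr7:100996572-101011991, − strand). P2ry14 (ENSMUSG00000036381, chr3:59114626-59130624, − strand) lies 77271 bases from P2ry13 (ENSMUSG00000036362, chr3:59207896-59210882, − strand). Between P2rx7 and P2rx4, and between P2ry14 and P2ry13, lies 1 other gene of the count table, and between P2ry6 and P2ry2 there is 0. Adora2a (ENSMUSG00000020178) is at chr10:75316943-75334788 and Adora2b (ENSMUSG00000018500) at chr11:62248984-62266453, both on the + strand. Entpd1 (ENSMUSG00000048120) is at chr19:40612366-40741602 on the + strand and Panx1 (ENSMUSG00000031934) at chr9:15005161-15045478 on the − strand. The exons of P2rx7 overlap those of Mir8115 on the same strand over 119 bases, which is 1.99% of their length, and no other member shares exon bases with an annotated gene. P2ry13 and P2ry14 lie within the span of Med12l on the opposite strand, and whether the counting used strand is not given in the sources used here.

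RefSeq promoter windows on GRCm38.p6, from 250 bases before to 50 after a start, were found for 8 of the 10 genes, with 14 windows in all. Windows of 5 genes are shown. Those of P2rx7, P2ry14 and Entpd1 hold a motif match, P2ry13 lies near P2ry14 and also rose with LPS, and Adora2b had the largest rise among members with a window. Letters of 4 motifs were searched on both strands and are in capitals where found: GGNNTTTCC (κB-like), TGANTCA (AP-1), TGACGT (CRE core) and TGATGNAA (ATF4-type).
P2rx7, chr5:122643677-122643976, + strand: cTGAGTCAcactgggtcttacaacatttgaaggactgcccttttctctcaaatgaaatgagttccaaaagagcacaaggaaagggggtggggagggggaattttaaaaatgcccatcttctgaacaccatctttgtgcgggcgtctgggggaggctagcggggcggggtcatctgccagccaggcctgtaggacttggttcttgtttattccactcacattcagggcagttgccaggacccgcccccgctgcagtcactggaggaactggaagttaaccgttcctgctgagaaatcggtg
P2ry13, chr3:59210833-59211132, − strand: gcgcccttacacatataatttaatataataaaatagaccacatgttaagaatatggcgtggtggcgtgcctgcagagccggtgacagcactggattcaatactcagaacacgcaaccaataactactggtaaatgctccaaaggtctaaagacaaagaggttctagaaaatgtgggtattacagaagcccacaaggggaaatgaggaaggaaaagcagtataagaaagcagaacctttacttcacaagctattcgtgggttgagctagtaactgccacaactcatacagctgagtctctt
P2ry14, chr3:59130713-59131012, − strand: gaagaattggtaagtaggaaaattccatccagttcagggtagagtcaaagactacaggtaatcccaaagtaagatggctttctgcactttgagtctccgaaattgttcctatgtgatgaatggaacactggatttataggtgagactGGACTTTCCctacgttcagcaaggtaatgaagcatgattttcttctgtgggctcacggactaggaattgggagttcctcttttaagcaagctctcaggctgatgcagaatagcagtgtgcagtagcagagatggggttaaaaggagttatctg
Adora2b, chr11:62248734-62249033, + strand: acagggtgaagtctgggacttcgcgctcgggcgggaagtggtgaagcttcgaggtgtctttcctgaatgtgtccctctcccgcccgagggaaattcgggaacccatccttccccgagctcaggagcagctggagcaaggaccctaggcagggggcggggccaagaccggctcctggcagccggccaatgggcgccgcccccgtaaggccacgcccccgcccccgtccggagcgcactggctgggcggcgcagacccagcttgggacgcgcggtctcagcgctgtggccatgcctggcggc
Entpd1, second window, chr19:40659520-40659819, + strand: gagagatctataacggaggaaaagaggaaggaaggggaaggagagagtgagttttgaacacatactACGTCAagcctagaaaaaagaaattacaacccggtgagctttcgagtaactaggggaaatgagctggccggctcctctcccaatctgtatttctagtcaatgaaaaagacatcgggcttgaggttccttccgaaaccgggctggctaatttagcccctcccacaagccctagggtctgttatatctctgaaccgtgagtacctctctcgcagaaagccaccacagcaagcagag

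The P2rx7 window above holds AP-1 letters at position −249 from the start. The P2ry14 window holds κB-like letters at position −103, and 2 other P2ry14 windows hold AP-1 letters. The second Entpd1 window holds the CRE core on the − strand at position −184. No other of the 14 windows held any of the 4 motifs, and no match overlapped another. Of 32817 promoter windows of the same length, 5.83% held the κB-like letters, 7.81% AP-1, 7.51% the CRE core and 3.97% the ATF4-type letters. The windows also differ in base composition, with a GC content of 42.3% and 6 CpG in P2ry13 against 70% and 27 CpG in Adora2b.

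The cells carried the markers of macrophages. Each of the 8 listed macrophage genes was detected in all 40 libraries, for example Csf1r at 1828 to 4194 CPM and Lyz2 at 12943 to 31241 CPM. The libraries of WT mouse 496 and NDI1 mouse 503 stood apart in genes of other cell types. Summed CPM over 6 neutrophil genes was 261 to 1513 in mouse 496 and 266 to 525 in mouse 503, against 9.01 to 107 in the other 32 libraries. Summed CPM over 4 fibroblast genes was 30.6 to 104 in mouse 496, 9.05 to 12.6 in mouse 503 and 0.754 to 17.4 in the others. Summed CPM over 4 platelet and megakaryocyte genes was 272 to 369 in mouse 496, 240 to 332 in mouse 503 and 36.9 to 174 in the others. A few genes made up most of 2 of these sums. Over the 40 libraries Pf4 had a median of 92.7 CPM, and the other platelet genes at most 1.06. S100a8 and S100a9 had medians of 18.9 and 38.8 CPM, and the other neutrophil genes at most 0.507. Summed CPM over 5 dendritic cell genes was 5.72 to 59.6 in mouse 496, 8.60 to 34.9 in mouse 503 and 1.29 to 25.3 in the others, and the 4 erythroid genes summed to at most 0.253 CPM in any library. Summed CPM over 5 B and T lymphocyte genes was 0.795 to 11.9 in mouse 496, 4.39 to 10.0 in mouse 503 and at most 2.00 in the others, and over 4 mast cell and basophil genes 0.397 to 6.83, 1.43 to 3.43 and at most 0.640. Some of these sums also differed by treatment. The dendritic cell genes summed to 1.42 to 5.72 CPM in untreated WT BMDMs, 10.9 to 33.2 CPM with LPS and 11.2 to 59.6 CPM with LPS and piericidin A. The median neutrophil sum in WT was 28.5 CPM untreated, 46.0 with LPS, 45.6 with piericidin A and 104 with both agents. The part of these genes' cells in the results was not tested. Results are also given without both mice, an alternative chosen after these values were seen. In bulk RNA, fewer cells of a type and less RNA per cell cannot be told apart.

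In untreated WT BMDMs, the receptors covered a wide range of levels per length. P2ry6 (56.1 RPKM), P2rx4 (48.9 RPKM) and Entpd1 (37.1 RPKM) were the highest, P2rx7 followed at 15.4 RPKM, and Adora2a was the lowest at 0.476 RPKM. P2ry2 (4.86), Panx1 (3.09) and Adora2b (3.03 RPKM) lay between, with P2ry14 at 1.20 and P2ry13 at 0.983 RPKM. Neighbours in this order overlapped between libraries, except Entpd1 and P2rx7, P2rx7 and P2ry2, P2ry2 and Panx1, and Adora2b and P2ry14. With LPS, Adora2a and Adora2b rose to 41.0 and 40.5 RPKM, close to P2ry6 at 52.0 and P2rx4 at 55.2, while P2rx7 was at 4.70 RPKM.

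**Figure D1:**
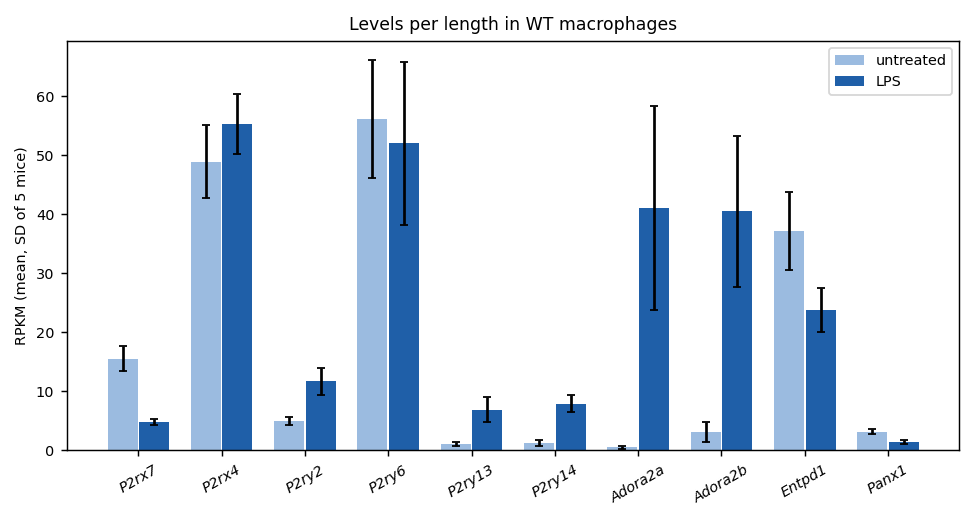
Mean RPKM (y axis, bars, with SD over 5 mice) of the 10 genes (x axis) in WT BMDMs, untreated in light blue and with LPS in dark blue. Adora2a and Adora2b move from 0.476 and 3.03 RPKM to 41.0 and 40.5 RPKM, and P2rx7 from 15.4 to 4.70 RPKM.

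LPS for 4 h moved most of the genes, with the P2X7 channel, the ectonucleotidase and pannexin lower and the adenosine receptors and 3 P2Y receptors higher. In WT BMDMs 8 of the 10 genes were called, beside 62.5% of all tested genes. Of these, 5 were higher, beside 31.5% of all genes, and 3 were lower, beside 31%. For the same 8 genes the 5 libraries with LPS did not overlap the 5 without, as for 49.8% of all genes. The median absolute log2 fold change of the 10 genes was 1.49 against 0.64 over all tested genes. The count was also 8 without mice 496 and 503.

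P2rx7, the ATP-gated channel that opens the potassium path, fell with LPS. In untreated WT BMDMs P2rx7 was at 82.4, 103, 93.7, 106 and 76.6 CPM, and with LPS it was at 27.1, 31.3, 28.8, 23.0 and 30.1 CPM. Every LPS library lay below every untreated library. The log2 fold change was −1.71 ± 0.14 (SE, n = 5 mice), which is 3.28-fold lower, with an adjusted p of 1.33e-13 in edgeR's quasi-likelihood test. In NDI1 BMDMs P2rx7 was at 100, 112, 90.2, 106 and 78.4 CPM untreated and at 30.1, 31.5, 33.5, 25.7 and 23.8 CPM with LPS, a log2 fold change of −1.75 ± 0.14. P2rx4, the more abundant P2X channel beside it on the chromosome, was at 293, 348, 314, 406 and 357 CPM in untreated WT BMDMs and at 389, 384, 336, 437 and 393 CPM with LPS. These ranges overlap. The log2 fold change of P2rx4 was 0.18 ± 0.10 (95% interval −0.01 to 0.36, adjusted p = 0.114 in edgeR's test), and with the mouse as a block (replicate block) it was called at an adjusted p of 0.0314.

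Among the P2Y receptors, the response split within 1 nearby pair and not within the other. P2ry13, an ADP receptor coupled to Gi, was at 2.36, 3.42, 1.83, 3.42 and 1.40 CPM in untreated WT BMDMs and at 19.1, 17.6, 12.0, 25.0 and 12.4 CPM with LPS. P2ry14, a receptor for UDP-sugars, was at 16.0, 18.4, 16.0, 8.90 and 7.23 CPM untreated and at 99.8, 104, 84.7, 84.4 and 62.7 CPM with LPS. In both genes every LPS library lay above every untreated one, with log2 fold changes of 2.79 ± 0.35 for P2ry13 and 2.71 ± 0.26 for P2ry14 (adjusted p = 1.36e-08 and 1.25e-11, edgeR). P2ry2, a receptor for ATP and UTP, was at 14.4, 21.0, 21.0, 19.7 and 19.3 CPM untreated and at 30.8, 50.1, 45.7, 55.3 and 46.6 CPM with LPS. Its LPS libraries were all higher, with a log2 fold change of 1.26 ± 0.22 (adjusted p = 4.92e-06, edgeR). P2ry6, the UDP receptor and neighbour of P2ry2, ranged from 132 to 209 CPM untreated (median 161) and from 115 to 219 CPM with LPS (median 140). It was not called (log2 fold change −0.11 ± 0.23, 95% interval −0.57 to 0.35, adjusted p = 0.704 in edgeR's test). Across the 40 libraries the log2 CPM of P2ry13 and P2ry14 had a Pearson r of 0.90, against −0.15 for P2ry2 and P2ry6 and −0.25 for P2rx7 and P2rx4, as a description over libraries that share mice and treatments.

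The adenosine receptors rose most. Adora2a, the adenosine receptor of higher affinity, was at 0.652, 1.62, 0.609, 2.07 and 2.35 CPM in untreated WT BMDMs, from 8 to 37 counts per library. With LPS it was at 144, 125, 80.2, 204 and 74.2 CPM. The log2 fold change was 6.40 ± 0.48, an 84.6-fold rise (adjusted p = 3.05e-14, edgeR), and it ranked 71st from the top among the 11853 genes. Adora2b, the adenosine receptor of lower affinity, was at 3.83, 3.67, 3.86, 11.0 and 5.52 CPM untreated and at 60.9, 45.4, 73.3, 107 and 86.6 CPM with LPS. Its groups did not overlap either, and the log2 fold change was 3.75 ± 0.38, or 13.4-fold (adjusted p = 5.59e-11, edgeR). Mouse 496 had the highest level of both receptors with LPS, and without mice 496 and 503 the log2 fold changes were 6.30 for Adora2a and 3.98 for Adora2b.

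Entpd1, which encodes CD39, and Panx1, a channel through which ATP leaves the cell, both fell. Entpd1 was at 208, 238, 241, 198 and 151 CPM in untreated WT BMDMs and at 145, 150, 144, 127 and 98.9 CPM with LPS, all below the lowest untreated library. Its log2 fold change was −0.64 ± 0.15, or 1.56-fold lower (adjusted p = 0.000281, edgeR). Panx1 was at 16.7, 16.4, 17.1, 21.5 and 21.3 CPM untreated and at 6.81, 9.61, 10.0, 7.27 and 5.75 CPM with LPS. Its log2 fold change was −1.23 ± 0.17, or 2.34-fold lower (adjusted p = 1.17e-07, edgeR).

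NDI1 BMDMs responded to LPS alike in call and direction, with the same 5 genes higher and 3 lower, where 62.7% of all genes were called. P2ry13 in NDI1 BMDMs went from 2.34, 1.99, 1.46, 2.96 and 2.43 CPM to 12.7, 15.0, 14.6, 21.3 and 12.7 CPM. P2ry14 went from 16.7, 18.7, 13.1, 11.5 and 6.01 CPM to 81.2, 86.9, 87.6, 97.5 and 74.4 CPM. Adora2a went from 0.981, 1.35, 0.406, 2.51 and 0.859 CPM to 112, 143, 136, 196 and 74.1 CPM. In each of these genes the LPS libraries all lay above the untreated ones. With the replicate block, 9 genes were called in WT, beside 72% of all genes, and 9 in NDI1, beside 72.4%, where P2ry6 was added at a log2 fold change of −0.24 ± 0.10 (adjusted p = 0.0377, edgeR). The difference of the LPS effect between NDI1 and WT was called for none of the 10 genes and for 0% of all genes by edgeR, with 63 genes at an unadjusted p under 0.05, and for 0 genes by DESeq2. The widest 95% interval of this difference among the 10 genes was that of Adora2a, from −0.91 to 1.65 on the log2 scale, and the narrowest that of P2rx4, from −0.31 to 0.23.

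**Figure D2:**
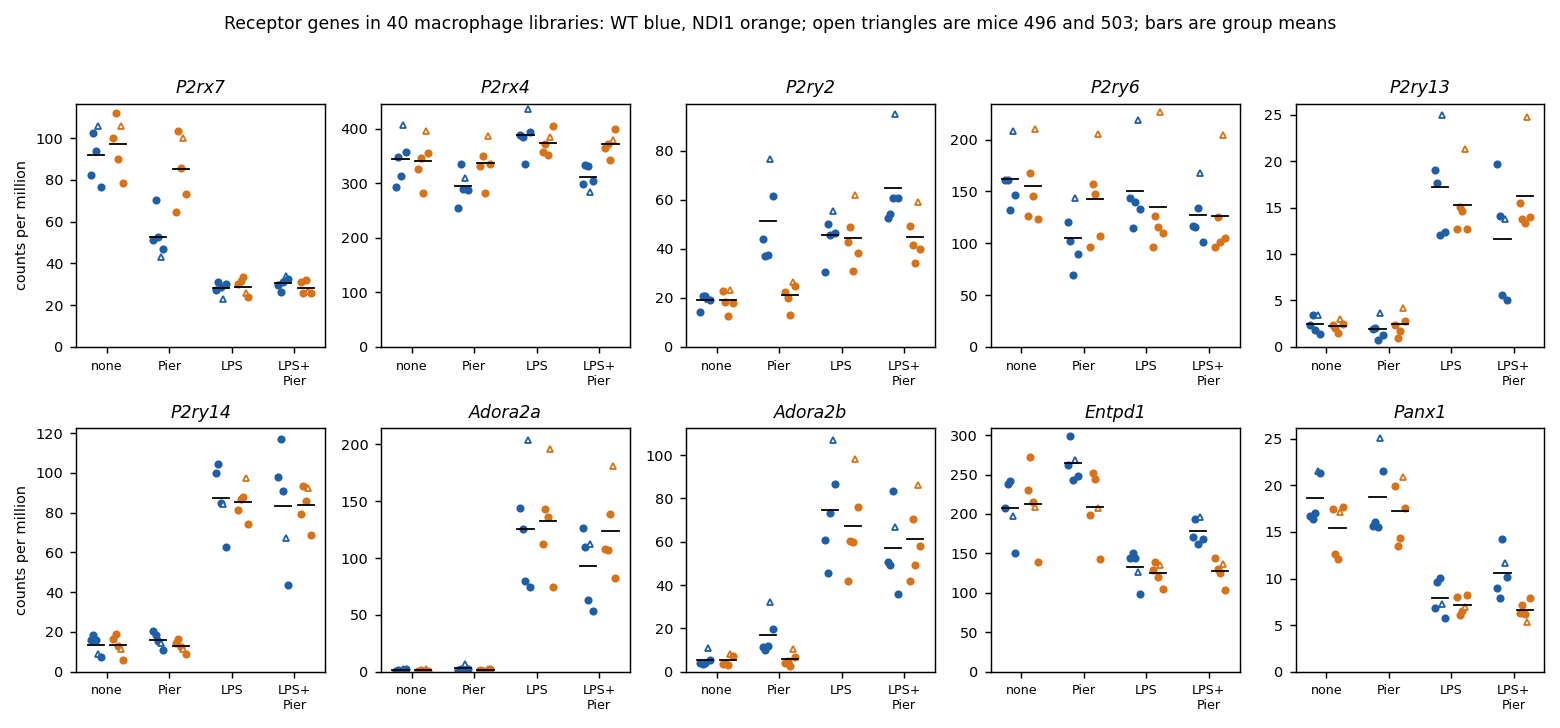
CPM (y axis, from 0, scale set per gene) of the 10 genes in every library, by treatment (x axis, none, piericidin A, LPS and LPS with piericidin A), with WT in blue, NDI1 in orange, group means as bars and mice 496 and 503 as open triangles. P2rx7 falls from 76.6 to 106 CPM in untreated WT BMDMs to 43.0 to 70.3 CPM with piericidin A, and NDI1 BMDMs with piericidin A lie at 64.4 to 103 CPM, against 78.4 to 112 CPM untreated.

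Piericidin A without LPS moved 3 of these genes in WT BMDMs in the same direction as LPS did, with P2rx7 lower and P2ry2 and Adora2b higher. These 2 comparisons share the untreated libraries. Of all tested genes 14.8% were called, 7.79% higher and 7.05% lower, and among the 10 genes 2 were higher and 1 lower. P2rx7 was at 51.4, 70.3, 52.8, 43.0 and 47.0 CPM with piericidin A, below every untreated library. The log2 fold change was −0.80 ± 0.13, or 1.74-fold lower (adjusted p = 4.75e-05, edgeR). P2ry2 was at 44.2, 37.2, 37.7, 76.8 and 61.7 CPM, above every untreated library, a log2 fold change of 1.43 ± 0.22 or 2.69-fold (adjusted p = 1.57e-05, edgeR). The change of P2ry2 with LPS alone was 1.26 ± 0.22, and the difference between these changes was not tested. Adora2b was at 11.4, 10.2, 11.9, 32.2 and 19.7 CPM, a log2 fold change of 1.61 ± 0.36 or 3.06-fold (adjusted p = 0.00211, edgeR). The ranges of Adora2b overlapped because untreated cells of mouse 496 stood at 11.0 CPM, but within each mouse the log2 difference lay between 1.43 and 1.80. Groups did not overlap for P2rx7, P2ry2 and Entpd1, as for 11.4% of all genes. Entpd1 was not called and went opposite to LPS, at a log2 fold change of 0.35 against −0.64 with LPS.

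The calls for P2rx7, P2ry2 and Adora2b held without mice 496 and 503, with log2 fold changes of −0.68, 1.25 and 1.64, and P2ry6 was then called as well at −0.66 (adjusted p = 0.00649, edgeR). With the replicate block, 6 of the 10 genes were called, beside 34.2% of all genes. The block added P2ry6 (−0.64 ± 0.10, adjusted p = 1.19e-05), P2rx4 (−0.22 ± 0.07, adjusted p = 0.0226) and Entpd1 (0.36 ± 0.09, adjusted p = 0.00262), all in edgeR. P2ry6 was lower with piericidin A in 5 of 5 WT mice, at 68.9 to 144 CPM. Adora2a was at 1.29, 2.72, 0.842, 6.92 and 2.43 CPM, P2ry13 at 1.89, 2.09, 0.702, 3.68 and 1.31 CPM and P2ry14 at 20.6, 18.4, 15.4, 14.6 and 10.7 CPM. These 3 genes were not called, with adjusted p of 0.222, 0.561 and 0.518 in edgeR's test. Panx1 was at 15.7, 16.0, 15.5, 25.1 and 21.6 CPM, with a log2 fold change of 0.01 ± 0.16 (95% interval −0.31 to 0.33).

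NDI1 BMDMs showed none of these changes as a call. Piericidin A without LPS called 0% of all genes in NDI1 by edgeR, with 58 at an unadjusted p under 0.05, and 0 by DESeq2. P2rx7 was at 64.4, 103, 85.6, 100 and 73.3 CPM, a log2 fold change of −0.19 ± 0.13 (95% interval −0.44 to 0.07). P2ry2 went from 22.9, 18.2, 12.5, 23.1 and 18.1 CPM untreated to 22.6, 20.0, 12.8, 26.6 and 24.8 CPM. Its log2 fold change was 0.17 ± 0.22 (95% interval −0.26 to 0.59). Adora2b went from 3.70, 3.92, 3.00, 8.33 and 7.16 CPM to 3.87, 4.72, 2.78, 10.3 and 6.76 CPM. Its log2 fold change was 0.12 ± 0.38, with a 95% interval of −0.62 to 0.85. P2rx7 was lower with piericidin A in 5 of 5 NDI1 mice, with log2 differences between −0.63 and −0.07.

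The difference of the piericidin A effect between genotypes was tested directly. Without LPS it was called for P2ry2 alone among the 10 genes, at −1.26 ± 0.31 (NDI1 minus WT, adjusted p = 0.0243, edgeR), beside 1.27% of all genes. This call was lost without mice 496 and 503 (−1.09, adjusted p = 0.0739) and in the fits without WT mouse 449, 496 or 520 or NDI1 mouse 447, 460 or 521 (adjusted p between 0.0520 and 0.115). With the replicate block 4 genes were called, beside 8.96% of all genes. They were P2ry2 (−1.22 ± 0.18), Adora2b (−1.50 ± 0.32, adjusted p = 0.00283), P2rx7 (0.61 ± 0.16, adjusted p = 0.0140) and P2ry6 (0.50 ± 0.14, adjusted p = 0.0234), all in edgeR. Without mice 496 and 503 the replicate block called 2 of them, P2ry2 and Adora2b, beside 397 of 11768 genes tested. In cells given piericidin A alone, NDI1 differed from WT in 3 of the 10 genes, beside 7.8% of all genes. P2rx7 was higher by 0.69 ± 0.13, P2ry2 lower at −1.27 ± 0.22 and Adora2b lower at −1.59 ± 0.36 on the log2 scale (adjusted p = 0.000485, 0.000125 and 0.00363, edgeR). All 3 remained called without mice 496 and 503.

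**Figure D3:**
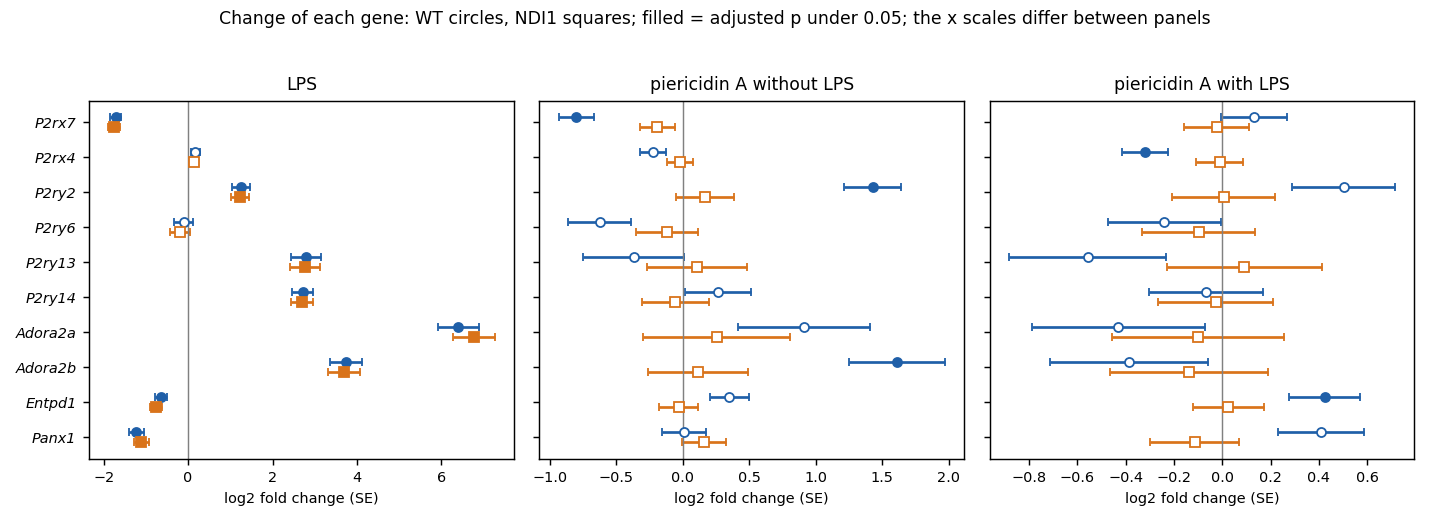
Log2 fold change with SE (x axis, a different scale in each panel) of the 10 genes (y axis) for LPS, piericidin A without LPS and piericidin A with LPS, in WT (blue circles) and NDI1 (orange squares), filled where the adjusted p was under 0.05. LPS values nearly coincide between genotypes, while P2rx7 (−0.80), P2ry2 (1.43) and Adora2b (1.61) move with piericidin A in WT BMDMs and no NDI1 value in the piericidin A panels is filled.

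Piericidin A before LPS called 2 of the 10 genes in WT BMDMs, beside 16.7% of all genes, with P2rx4 lower and Entpd1 higher. The same 2 genes had groups that did not overlap, as for 7.88% of all genes. P2rx4 was at 298, 334, 332, 284 and 305 CPM, against 336 CPM or more with LPS alone, a log2 fold change of −0.32 ± 0.10 or 1.25-fold lower (adjusted p = 0.0200, edgeR). Entpd1 was at 171, 194, 162, 196 and 168 CPM, all above the 150 CPM that was the highest with LPS alone. Its log2 fold change was 0.42 ± 0.15, or 1.34-fold (adjusted p = 0.0430, edgeR).

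Both calls were near the threshold in the fit without the mouse as a block. Without mice 496 and 503 neither was called (P2rx4 −0.24, adjusted p = 0.15, and Entpd1 0.37, adjusted p = 0.193). The P2rx4 call was also lost in the fits without WT mouse 449, 496 or 520 (adjusted p between 0.0589 and 0.161), and the Entpd1 call in those without any of WT mice 449, 452, 496 and 520 or NDI1 mice 447, 461 and 503 (adjusted p between 0.0545 and 0.176). With the replicate block both were called, as were P2ry2 (0.49 ± 0.13, adjusted p = 0.00320) and P2ry13 (−0.63 ± 0.17, adjusted p = 0.00612), which made 4 of the 10 genes, beside 34.5% of all genes. Without mice 496 and 503 the replicate block called the same 4 of the 10 genes, P2rx4 and Entpd1 among them, beside 2659 of 11768 genes tested. P2ry2 was at 52.5, 54.4, 60.9, 95.1 and 60.7 CPM with both agents and P2ry13 at 19.7, 14.1, 5.61, 13.8 and 5.05 CPM. P2ry2 was higher than with LPS alone in 5 of 5 mice, and P2ry13 lower in 4 of 5.

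The other receptors were not called against LPS alone. P2rx7 was at 29.8, 26.5, 30.9, 34.0 and 32.5 CPM, a log2 fold change of 0.13 ± 0.14 (95% interval −0.14 to 0.40). Adora2a was at 126, 110, 63.3, 112 and 53.6 CPM, lower in 5 of 5 mice, a log2 fold change of −0.43 ± 0.36 (adjusted p = 0.430, edgeR). Adora2b was at 50.5, 49.4, 83.4, 66.7 and 35.6 CPM, a log2 fold change of −0.39 ± 0.33 (adjusted p = 0.443, edgeR). Both intervals hold 0, from −1.13 to 0.27 for Adora2a and from −1.03 to 0.26 for Adora2b. P2ry14 was at 97.7, 117, 90.8, 67.4 and 43.4 CPM and Panx1 at 8.98, 7.93, 14.3, 11.6 and 10.1 CPM. Panx1 was higher in 4 of 5 mice, at a log2 fold change of 0.41 ± 0.18 (adjusted p = 0.112, edgeR).

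Whether the LPS response itself differed in the presence of piericidin A was tested in WT BMDMs. The LPS effect changed with piericidin A for 2 of the 10 genes, beside 4.75% of all genes. For P2rx7 the change was 0.93 ± 0.19 (adjusted p = 0.00256, edgeR), that is a smaller fall, from 52.9 to 30.7 CPM with piericidin A against 92.2 to 28.1 CPM without it (group means). For Adora2b it was −2.0 ± 0.49 (adjusted p = 0.0116, edgeR), a smaller rise, from 17.1 to 57.1 CPM against 5.59 to 74.7 CPM. The P2rx7 call was lost without WT mouse 496 (0.71, adjusted p = 0.0630) and without both mice 496 and 503 (0.71, adjusted p = 0.0635), and the Adora2b call without WT mouse 520 (−1.75, adjusted p = 0.114). With the replicate block 4 genes were called, beside 17.4% of all genes, with P2ry2 (−0.90 ± 0.18, adjusted p = 0.000579) and P2ry6 (0.41 ± 0.14, adjusted p = 0.0430) added in edgeR. Without mice 496 and 503 the replicate block called 3, P2rx7, Adora2b and P2ry2, beside 978 of 11768 genes tested.

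In NDI1 BMDMs with LPS, piericidin A again called 0% of all genes by edgeR, with 127 at an unadjusted p under 0.05, and 0 by DESeq2. P2rx4 went from 358, 371, 352, 385 and 404 CPM with LPS to 365, 371, 343, 379 and 399 CPM with both agents. Entpd1 went from 129, 139, 120, 136 and 105 CPM to 144, 131, 126, 136 and 103 CPM. The log2 fold changes were −0.01 ± 0.10 for P2rx4 and 0.02 ± 0.15 for Entpd1, with 95% intervals of −0.20 to 0.18 and −0.26 to 0.31. Panx1 went from 8.01, 6.10, 6.48, 6.96 and 8.20 CPM to 6.32, 7.14, 6.20, 5.38 and 7.91 CPM, which overlap. The difference of the piericidin A effect between genotypes with LPS was called for none of the 10 genes, beside 0.979% of all genes, and for Entpd1 with the replicate block (−0.41 ± 0.13, adjusted p = 0.0439, edgeR), beside 9.51%. Without mice 496 and 503 the replicate block called none.

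Between genotypes at the same treatment, untreated and LPS-treated cells gave 0 calls among the 10 genes and 0% of all genes for each, with 39 and 141 genes at an unadjusted p under 0.05 in edgeR's test and 0 genes called by DESeq2. With LPS and piericidin A, Entpd1 (−0.48 ± 0.15, adjusted p = 0.0282) and Panx1 (−0.67 ± 0.18, adjusted p = 0.0118, edgeR) were lower in NDI1 than in WT, beside 12% of all genes. P2rx4, Entpd1 and Panx1 had genotypes that did not overlap here, as for 5.37% of all genes, and P2rx4 was at 0.26 ± 0.10 (adjusted p = 0.0764, edgeR). Without mice 496 and 503 neither Entpd1 (adjusted p = 0.129) nor Panx1 (adjusted p = 0.0990) was called, and the Entpd1 call was also lost in the fits without WT mouse 452 or 496 or NDI1 mouse 461 or 503 (adjusted p between 0.0514 and 0.0813).

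**Figure D4:**
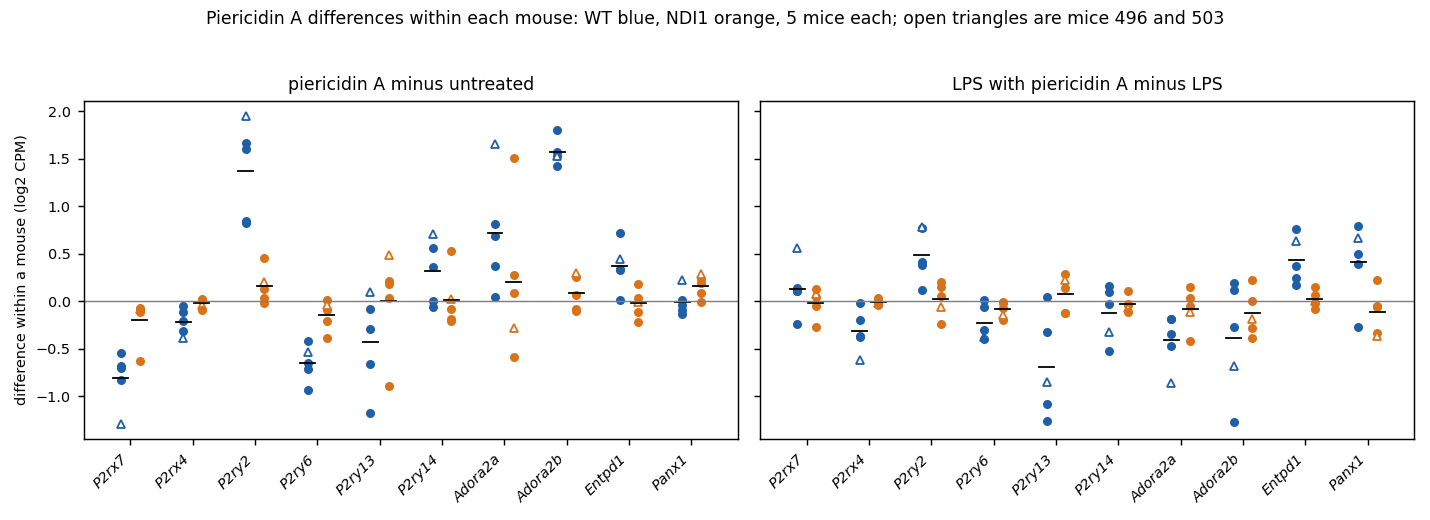
Log2 CPM difference within each mouse (y axis) for the 10 genes (x axis), piericidin A minus untreated on the left and LPS with piericidin A minus LPS on the right, with WT in blue, NDI1 in orange, means as bars and mice 496 and 503 as open triangles. Without LPS the 5 WT mice lie between 1.43 and 1.80 for Adora2b and the 5 NDI1 mice between −0.10 and 0.30.

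P2ry6 was highest in mouse 496 among WT and in mouse 503 among NDI1 libraries under all 4 treatments, next to the higher neutrophil and platelet genes of both mice and the higher fibroblast genes of mouse 496. In LPS-treated WT BMDMs P2ry6 was at 219 CPM in mouse 496 against 115 to 144 CPM in the others, and in LPS-treated NDI1 BMDMs at 227 CPM in mouse 503 against 96.6 to 127 CPM. The part of other cell types in these levels was not tested. The share of the variance of log2 CPM that lay between the 8 groups was 95.7% for Adora2a and 94.4% for P2rx7, and 25.0% for P2ry6, the lowest of the 10 genes.

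Other genes of nucleotide signalling were taken from lists of receptors, enzymes, carriers and later steps, and their calls are given for WT BMDMs. None of the 5 other P2X receptors passed the filter on low counts. Of the other P2Y receptors 3 of 4 were tested, with 1 higher and 1 lower after LPS in WT BMDMs, where 62.5% of all genes were called, and with 0 called in NDI1 (1 with the replicate block), where 62.7% were. P2ry10 was higher (2.12 ± 0.82, adjusted p = 0.0247) and P2ry1, an ADP receptor coupled to Gq, was lower (−1.06 ± 0.37, adjusted p = 0.0119, edgeR). P2ry1 rose with piericidin A, by 1.10 ± 0.32 without LPS and 1.71 ± 0.37 with LPS on the log2 scale (adjusted p = 0.0177 and 0.00151, edgeR). The replicate block called 2 of the 3 with piericidin A, beside 34.2% of all genes without LPS and 34.5% with LPS. The level of P2ry1 was low, at a mean of 1.97 CPM untreated and 4.21 CPM with piericidin A. Adora3, the Gi-coupled A3 receptor, rose with LPS from a mean of 0.687 to 3.10 CPM (2.13 ± 0.46, adjusted p = 0.000136, edgeR), and Adora1 was not tested.

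Enzymes and carriers moved in both directions with LPS in WT BMDMs. Of 13 ectonucleotidases 6 were tested, with 2 higher and 2 lower, beside 31.5% of all genes higher and 31% lower, and a median log2 fold change of −0.55, against −0.01 over all genes. All 6 were called with the replicate block, beside 72% of all genes. They included Enpp4 (4.36 ± 0.33), Cd38, an NAD-consuming ectoenzyme (3.69 ± 0.88), and Entpd6 (−1.76 ± 0.22), with adjusted p of 3.19e-14, 0.000400 and 1.22e-08 in edgeR. Nt5e, which encodes the CD73 enzyme that makes adenosine from AMP, was not tested, and its highest group mean was 0.445 CPM. Of 6 genes of adenosine uptake and metabolism, 3 were called, 1 higher and 2 lower, beside 62.5% of all genes, with a median of −0.06. Slc28a2, a concentrative nucleoside carrier with a near-identical copy that could take part of its reads, was at 4.71 ± 0.28, and the equilibrative carriers Slc29a2 and Slc29a3 were at −2.87 ± 0.57 and −0.54 ± 0.19 (adjusted p = 9.07e-17, 3.52e-05 and 0.0115, edgeR). Slc28a2 fell by 1.29 ± 0.25 on the log2 scale with piericidin A before LPS, and Slc29a3 rose by 0.61 ± 0.19 (adjusted p = 0.000438 and 0.0204, edgeR).

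Of 5 other tested ATP release channels and carriers, 2 were higher and 3 lower with LPS, beside 31.5% and 31% of all genes, with a median of −0.66. Calhm6 (5.76 ± 0.46), the connexin gene Gja1 (4.50 ± 0.33) and Lrrc8a, a subunit of the volume-regulated anion channel (−1.36 ± 0.18), had the largest changes (adjusted p = 1.44e-13, 2.25e-14 and 1.88e-08, edgeR). Calhm2 was lower with piericidin A in WT BMDMs, at −1.28 ± 0.21 without LPS and −0.82 ± 0.22 with LPS (adjusted p = 5.28e-05 and 0.00976, edgeR). No other gene of this list was called with piericidin A, with or without LPS. This made 1 of the 5 in each comparison, beside 14.8% of all genes without LPS and 16.7% with LPS.

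Of 8 genes of later steps of the P2X7 route, 6 were higher and 1 lower with LPS, beside 31.5% and 31% of all genes, with a median of 1.46. Il1b (8.84 ± 0.49), Nlrp3 (4.13 ± 0.38) and Casp1, the protease that cleaves pro-IL-1β (2.51 ± 0.20), rose (adjusted p = 8.63e-18, 6.41e-12 and 1.11e-13, edgeR). Piericidin A before LPS called 2 of the 8 in WT BMDMs, beside 16.7% of all genes, Casp1 (−0.70 ± 0.19) and the potassium channel gene Kcnk6 (−0.54 ± 0.18), with adjusted p of 0.00908 and 0.0376 in edgeR. With the replicate block 6 of the 8 were called, 5 lower and 1 higher, beside 34.5% of all genes. Without LPS piericidin A called 2 of the 8, both higher, beside 14.8% of all genes, and 5 with the replicate block, beside 34.2%.

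Of 11 tested genes of the cAMP pathway, which lies below both adenosine receptors, 3 were higher and 5 lower with LPS, so that 8 were called beside 62.5% of all genes, with a median of 0.10. The phosphodiesterase gene Pde4b rose (3.69 ± 0.27), and the adenylyl cyclase gene Adcy9 (−2.24 ± 0.30) and Pde4d (−1.42 ± 0.47) fell (adjusted p = 1.10e-14, 3.27e-08 and 0.00873, edgeR). Piericidin A before LPS called 2, with Pde4a lower (−1.22 ± 0.24) and Adcy9 higher (1.06 ± 0.31), at adjusted p of 0.000586 and 0.0148 in edgeR, beside 16.7% of all genes, and 5 with the replicate block, beside 34.5%. Without LPS it called 1, beside 14.8% of all genes, and 3 with the replicate block, beside 34.2%. Of the 6 ectonucleotidases piericidin A called 0 with or without LPS, beside 16.7% and 14.8% of all genes, and the replicate block called 2 with LPS and 3 without, beside 34.5% and 34.2%. Of the 6 genes of adenosine uptake and metabolism piericidin A without LPS called 0, and 3 with the replicate block, beside 34.2% of all genes. In NDI1 BMDMs piericidin A called no gene of any list, with or without LPS.

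The genes outside the lists whose log2 CPM followed 9 of the members most closely over the 40 libraries were, as a description, Lcp2 for Adora2a (Pearson r = 0.99), Tle3 for P2ry14 (0.98), Eif4ebp2 for P2rx7 (0.98), Ogfrl1 for P2ry13 (0.97), Hcar2 for Adora2b (0.97), Maff for P2ry2 (0.95), Adipor1 for Entpd1 (0.94), Fbxl4 for Panx1 (0.92) and Elk3 for P2ry6 (0.78). How far these correlations follow the 8 groups was not tested. The share of variance between groups was 95.7% for Adora2a but 25.0% for P2ry6.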

How the data were processed

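RNA-seq was performed on BMDMs of 5 WT and 5 NDI1 mice in 40 polyA-selected libraries. The authors used Trimmomatic for trimming, STAR for alignment (mm10) and HTSeq for counting, and deposited raw counts per gene. Which annotation release was used, and whether strand was, is not given in the sources used here. A column of reads left unassigned to a library (1 per-sample column) and a column of gene lengths were not used, and lengths came from GENCODE M21 exons.

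The tests were run with edgeR 4.0.16 under R 4.3.3. Genes passing filterByExpr with the 8 groups (11853) were scaled with TMM factors, fitted with 1 mean per group over all 40 libraries with glmQLFit, and tested with glmQLFTest, with Benjamini-Hochberg adjustment over all tested genes. The SE is the log2 fold change over the square root of F, and log2 CPM used a prior count of 2. With a total of 6950748 to 13552070 counts, 3 counts, the floor, were 0.187 to 0.480 CPM, which covers counting error only, since reads are not independent molecules. The 4 libraries of 1 mouse share its number in the labels. Their deviations from the group means correlated at 0.453 on average (0.0995 to 0.769, 60 pairs), so a fit with the mouse as a replicate block was an alternative, printed where it changes a member's call or moves a list's count in the comparisons given by over 1.5 times. Replicates were checked for repeated libraries, and chi-square divided by its degrees of freedom was at least 9.35 in 80 pairs.

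The 10 genes and the lists were chosen with earlier results of these data known. Values in every library were given for members called in a comparison with piericidin A or whose log2 fold change with LPS in WT was 1 or more in size. From each list at most 3 called genes with the largest LPS change and at most 2 with the largest change by piericidin A with LPS were named. Alternatives were DESeq2 1.42.0, RLE factors, no filter or at least 10 counts in every library, only the libraries compared, each mouse left out, a log2 fold change of 1 or more in size, and, added after the data were seen, both mice 496 and 503 left out. The tests were tested on simulated data that held no effect of the mouse. They cannot show how the tests behave with libraries that share a mouse.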

Additional observations from a re-analysis of the deposited data

Results flagged for a closer look

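In 8 of the 80 sets of 5 libraries (10 genes in 8 groups) 1 library stood apart from the other 4 by Dixon's criterion, where chance would give about 4. Mouse 503 accounted for 4 of them. P2ry6 was at 227 CPM in its LPS library, against 127 CPM in the next, and at 204 CPM with LPS and piericidin A, against 125 CPM. P2ry13 was at 21.3 CPM in its LPS library, against 15.0 CPM, and at 24.8 CPM with LPS and piericidin A, against 15.5 CPM. Mouse 496 accounted for 3. P2ry6 was at 219 CPM with LPS, against 144 CPM, P2ry2 at 95.1 CPM with LPS and piericidin A, against 60.9 CPM, and Adora2b at 11.0 CPM untreated, against 5.52 CPM. In WT mouse 449, untreated P2ry2 was the lowest at 14.4 CPM, against 19.3 CPM. Mice 496 and 503 also had the highest summed neutrophil genes, whose part in these values was not tested.

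The effect of piericidin A on P2ry2 without LPS differed between genotypes, at −1.26 ± 0.31 on the log2 scale (NDI1 minus WT, adjusted p = 0.0243 in edgeR's quasi-likelihood test). In fits without the replicate block, the call was lost without both mice 496 and 503 (adjusted p = 0.0739) and without any 1 of mice 447, 449, 460, 496, 520 and 521 (adjusted p between 0.0520 and 0.115). With the replicate block P2ry2 was called, both with all mice and without mice 496 and 503. The 5 WT mice lay between 0.82 and 1.95 and the 5 NDI1 mice between −0.02 and 0.45.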

How the results depend on the processing

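Over all alternatives except the fold threshold, 2426 log2 fold changes of the 10 genes were compared with those reported, of which 2361 stayed called or not called as reported, 33 lost the call and 32 gained one. Of the called changes 0 reversed, while some that were not called crossed 0, such as Adora2a with piericidin A in NDI1 without LPS (−0.25 to 0.53). Under RLE factors 0 of 80 group means moved by 1 SD or more of the group's libraries. TMM factors were 0.696 to 0.899 in libraries with LPS and 1.13 to 1.37 in those without. Small changes with LPS therefore depend on this scaling. In WT BMDMs raw counts of P2rx4 were 3599 to 5624 untreated and 2598 to 3598 with LPS. No fit without such factors was run. The 8 calls with LPS were 8 in each fit with a mouse left out in either genotype, and Adora2a could not be tested where at least 10 counts were required in every library. With the mouse as a replicate block, calls went from 3 to 6 for piericidin A in WT without LPS, from 2 to 4 with LPS, from 1 to 4 and from 0 to 1 for the genotype difference of that effect without and with LPS, and from 2 to 4 for the change of the LPS effect. With mice 496 and 503 left out these counts were 4, 0, 0, 0 and 1, and 5, 4, 2, 0 and 3 with the replicate block as well. Of 11768 genes tested, the replicate block without these mice called 2699, 2659, 397, 290 and 978. In the fit without the block, calls over all genes fell without these mice, from 1759 to 909, from 1983 to 956, from 150 to 73, from 116 to 18 and from 563 to 187. For NDI1 against WT with both agents the count among the 10 genes fell from 2 to 0 without these mice. With WT mouse 496 alone left out, the first 4 of these calls over all genes were 788, 845, 79 and 35. With WT mouse 520 alone left out they were 888, 841, 63 and 27. Leaving out each mouse gave 3 to 4 calls for piericidin A without LPS, 0 to 2 with LPS, 0 to 2 for the genotype difference without LPS, 1 to 3 for the change of the LPS effect and 1 to 2 for NDI1 against WT with both agents. Over all genes these fits called 788 to 1800 for piericidin A without LPS, 841 to 2023 with LPS and 63 to 200 for the genotype difference without LPS. DESeq2 called 2 genes for the genotype difference without LPS, 4 for piericidin A in WT without LPS and 3 for the change of the LPS effect, beside 294, 2161 and 783 of 11853 genes. Requiring a log2 fold change of 1 or more in size left 7 calls with LPS in either genotype, 2 for piericidin A in WT without LPS, 2 for NDI1 against WT with piericidin A, 0 calls for piericidin A with LPS, 1 for the change of the LPS effect and 0 for NDI1 against WT with both agents. Without a filter on low counts piericidin A with LPS gave 0 calls and NDI1 against WT with both agents gave 1, and with only the libraries compared each gave 1. For piericidin A with LPS these 2 fits called 1423 of 24180 and 891 of 10396 genes. The cause of these changes was not tested. Depth limits Adora2a, with 5 to 37 counts in untreated libraries, and P2ry13, with 10 to 42 counts in WT with piericidin A.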
